A study of Mus musculus with 2 samples.

Results

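The genes that copy DNA, and those that supply its building blocks, were read in total RNA of mouse forebrain taken at embryonic day 13.5. The set holds 57 genes listed by symbol for their roles in DNA replication and deoxynucleotide supply, of 43346 mouse genes in the gene tables, and all 57 were found. The tissue came from healthy embryos of strain B6NCrl, males and females pooled, with no treatment or altered allele in the labels. The 2 libraries, called biological replicates 1 and 2 by the labels, form 1 group, carry the same donor code and were each made from 10 ng of RNA longer than 200 bases. They held 35378462 (replicate 1) and 36793284 (replicate 2) expected counts, which are estimated reads in which a read shared by several genes is divided. Levels are TPM, each gene's share of all transcripts after correction for length, so levels of different genes can be set side by side. With 1 group no test between conditions exists, and errors are the SD of the 2 libraries (n = 2) unless stated otherwise. Since the labels do not say whether the replicates came from separate litters, this spread may be partly technical.

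Before a cell divides it copies each chromosome once. In G1 the origin recognition complex (ORC), with Cdc6 and Cdt1, loads the ring-shaped helicase MCM2-7 onto origins of replication, and geminin later blocks reloading. In S phase the kinase Cdc7, with its activator Dbf4, and further initiation factors turn loaded rings into active helicases by adding Cdc45 and the GINS complex. Polymerase alpha-primase then starts each new strand, polymerase epsilon extends mainly the leading strand, and polymerase delta extends mainly the lagging strand, held on DNA by the sliding clamp PCNA. In the embryonic forebrain these steps run in the dividing cells that line the ventricles, whereas the neurons they produce have left the cell cycle. In bulk tissue, fewer dividing cells and less RNA per cell cannot be told apart.

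Many replication genes are known targets of E2F transcription factors, which bind near the start of transcription. The stretches below were taken from RefSeq promoter windows (build GRCm38.p6) because they hold the letters searched for here: TTTCCCGC, TTTGGCGC, TTTGCCGC or TTTCGCGC on either strand. Capitals mark these letters, each stretch runs 5′ to 3′ on the strand of its gene, and positions count from 1 at the RefSeq start, with no base 0. The Mcm6 stretch lies at chr1:128359741-128359820 (minus strand, bases -115 to -36), that of Mcm5 at chr8:75109322-75109401 (plus strand, bases -187 to -108) and that of Pola1 at chrX:93632250-93632329 (minus strand, bases -174 to -95).
Mcm6: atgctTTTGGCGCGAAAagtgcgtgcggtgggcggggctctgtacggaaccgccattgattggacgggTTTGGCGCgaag
Mcm5: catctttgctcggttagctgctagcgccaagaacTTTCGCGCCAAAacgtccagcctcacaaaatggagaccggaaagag
Pola1: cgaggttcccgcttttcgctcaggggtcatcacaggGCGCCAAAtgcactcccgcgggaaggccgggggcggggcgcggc

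Shorter sites follow for the other 2 MCM2-7 genes with a match, for both licensing factors with a window, for the ORC subunit with the lowest level, and for the clamp loader gene with 2 matches. The Mcm3 site lies at chr1:20820266-20820295 (minus strand), that of Mcm7 at chr5:138171852-138171875 (minus), Cdc6 at chr11:98908005-98908028 (plus), Cdt1 at chr8:122568039-122568062 (plus), Orc1 at chr4:108579419-108579442 (plus) and Rfc3 at chr5:151651198-151651221 (minus).
Mcm3: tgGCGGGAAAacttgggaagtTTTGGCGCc
Mcm7: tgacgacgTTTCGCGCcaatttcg
Cdc6: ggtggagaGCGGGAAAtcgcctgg
Cdt1: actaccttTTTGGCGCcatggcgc
Orc1: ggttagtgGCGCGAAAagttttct
Rfc3: cgcTTTCGCGCtcGCGGGAAAact

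All 57 genes were at 1 TPM or more in both libraries, and their levels spanned a 114-fold range in replicate 1 and a 137-fold range in replicate 2. Their median was 72.7 TPM (76.2 in replicate 1 and 67.8 in replicate 2), against 3.92 TPM over 21473 protein-coding genes and 20.1 TPM over the 12664 of these at 1 TPM or more. Of the members, 53 of 57 were at 10 TPM or more in both libraries, against 38.9% of protein-coding genes. At 100 TPM or more stood 12 members, against 7.42% of protein-coding genes. The members together made up 0.461% of all TPM in replicate 1 and 0.426% in replicate 2.

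**Figure D1:**
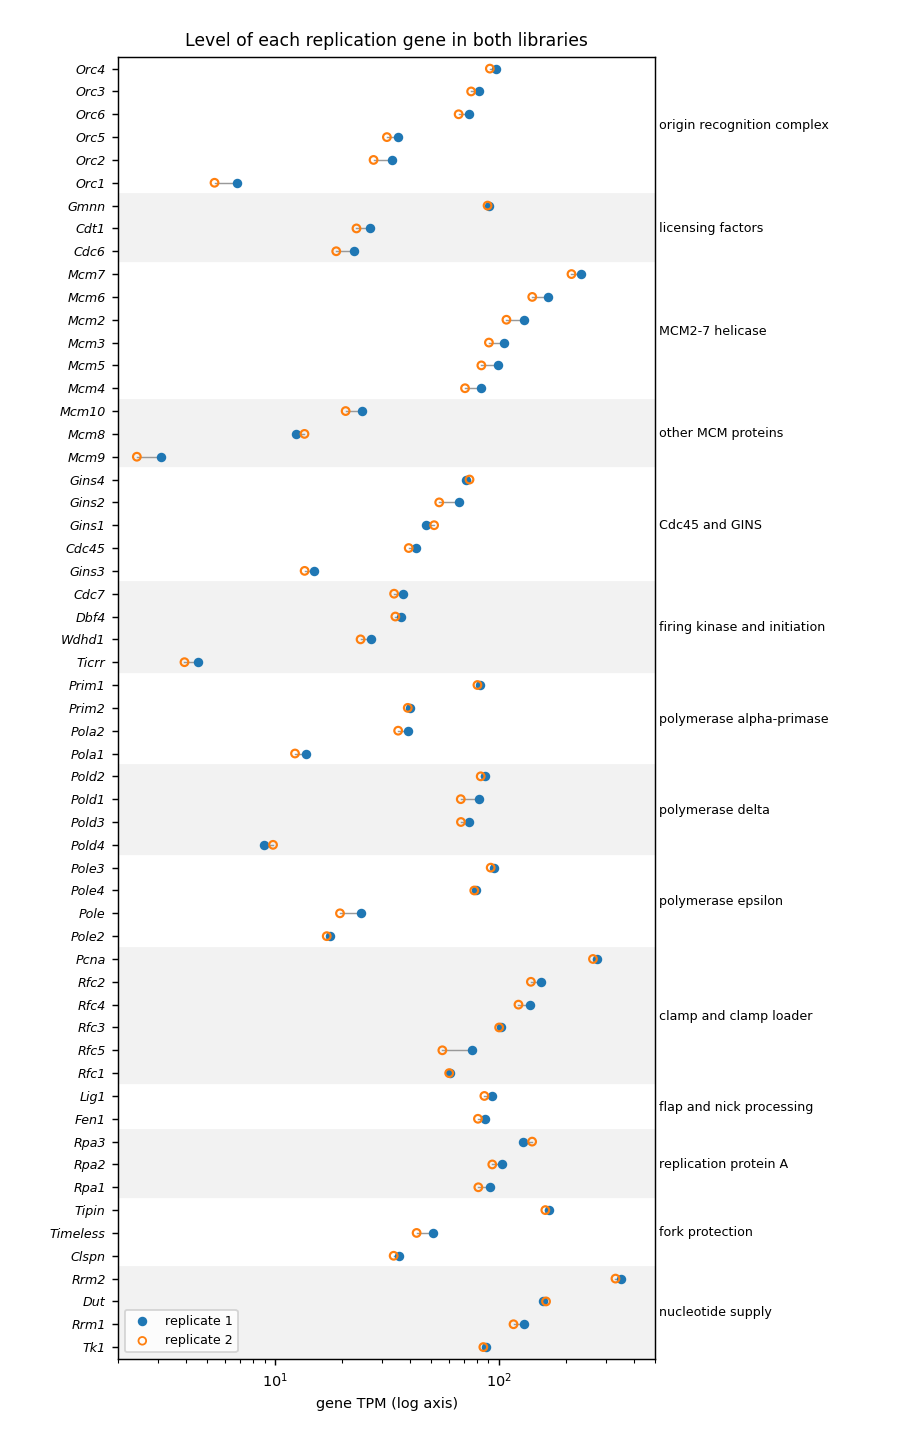
TPM of each of the 57 genes on a log axis, grouped by role, with filled points for replicate 1 and open points for replicate 2. Rrm2 (354 and 332 TPM) and Pcna (274 and 264 TPM) lie farthest to the right, Mcm9 (3.09 and 2.42 TPM) farthest to the left, and the points of both libraries lie close together for most genes.

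The 6 ORC subunits, which mark origins, were at unequal levels. Orc1, the subunit whose protein is known to come and go with the cell cycle in mammals, was lowest, with 6.80 TPM in replicate 1 and 5.38 TPM in replicate 2. Orc2 had 33.4 and 27.6 TPM, Orc5 35.3 and 31.7 TPM, and Orc6 73.4 and 66.2 TPM, in replicates 1 and 2 in this order, which the paired values below keep. Orc3 had 81.8 and 75.3 TPM and Orc4 97.1 and 91.3 TPM. Every other ORC subunit was thus at least 4 times above Orc1 in both libraries, and Orc4 was 15.6 ± 1.9 times above it. That ratio was 4.43 ± 0.22 when only complete coding transcripts were counted, since most Orc4 TPM belonged to noncoding transcripts, described further on. Among the licensing factors, the loader genes Cdc6 (22.5 and 18.8 TPM) and Cdt1 (26.6 and 23.2 TPM) lay close together. Gmnn, the geminin gene whose protein binds and blocks Cdt1, had 90.5 and 89.2 TPM, which is 3.63 ± 0.31 times the level of Cdt1.

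The 6 MCM2-7 genes encode subunits that sit once each in the helicase ring, and their levels lay within a 2.78-fold range in replicate 1 and a 2.99-fold range in replicate 2. Mcm7 led with 232 and 211 TPM, followed by Mcm6 with 165 and 141 TPM and Mcm2 with 129.8 and 108 TPM. Mcm3 had 106 and 90.4 TPM, Mcm5 98.8 and 83.7 TPM and Mcm4 83.5 and 70.7 TPM. The order of the 6 was the same in both libraries. Mcm6 was 1.99 ± 0.011 times and Mcm7 2.89 ± 0.15 times as high as Mcm4, and 2.36 ± 0.12 times for Mcm7 over complete coding transcripts. Part of Mcm7's exons overlap those of Ap4m1 on the opposite strand over 321 bases, and the sources used here do not say whether reads were assigned by strand.

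The other MCM proteins were far lower. Mcm10, an initiation factor outside the ring, had 24.4 and 20.7 TPM. Mcm8 (12.5 and 13.6 TPM) and Mcm9 (3.09 and 2.42 TPM), which form a separate helicase known from recombination repair, were the lowest MCM genes. Mcm4 stood 28.1 ± 1.6 times above Mcm9, which had 328 and 280 expected counts, and 5.95 ± 1.0 times above Mcm8. Mcm9 shares 1748 exonic bases with Asf1a on the opposite strand, so even its low level is uncertain.

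The genes that turn the loaded ring into a working helicase had lower medians than the ring itself, although Gins4 exceeded Mcm4 in replicate 2. Cdc45 had 42.8 and 39.6 TPM. Among the GINS subunits, Gins4 had 71.3 and 74.1 TPM, Gins2 66.4 and 54.2 TPM, Gins1 47.2 and 51.5 TPM and Gins3 15.0 and 13.6 TPM. Gins4 was 5.11 ± 0.49 times as high as Gins3, although the complex is known to hold 1 copy of each. The kinase gene Cdc7 (37.5 and 34.1 TPM) and its activator gene Dbf4 (36.7 and 34.5 TPM) were level in gene TPM, with a ratio of 1.00 ± 0.025. Over complete coding transcripts Cdc7 was lower, with a ratio of 0.865 ± 0.0088. Transcripts with a retained intron held 26.2% of Cdc7 TPM and 12.4% of Dbf4 TPM. Wdhd1, the polymerase alpha anchor also called And-1, had 26.9 and 24.2 TPM. Ticrr, an initiation factor also called Treslin, had 4.56 and 3.95 TPM and was the second lowest of all 57 genes.

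MCM2-7 stood above the origin recognition complex by 1.14 ± 0.065 and above Cdc45 and GINS by 1.11 ± 0.26, as differences of median log2(TPM + 1). Both differences were larger than their spread between libraries, and both stayed positive with complete coding transcripts alone, at 1.95 and 1.33. This spread covers the 2 libraries and not the spread among the few genes of each complex.

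In polymerase alpha-primase, which lays the RNA-DNA primer, the small primase subunit gene Prim1 was highest with 82.3 and 80.4 TPM. The large primase subunit gene Prim2 had 40.4 and 39.2 TPM, so Prim1 stood 2.04 ± 0.0060 times above it. Pola2 had 39.2 and 35.6 TPM and the catalytic subunit gene Pola1 13.8 and 12.3 TPM. The catalytic gene was thus the lowest of its complex, with Prim1 6.25 ± 0.39 times above it.

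Polymerase delta showed another order. Its catalytic subunit gene Pold1 had 81.4 and 67.7 TPM, close to Pold2 (86.7 and 83.1 TPM) and Pold3 (73.9 and 67.8 TPM). The small subunit gene Pold4 was the exception at 8.93 and 9.82 TPM, with 161 and 193 expected counts, the fewest of any member. Counting error alone gives Pold4 an exact 95% Poisson interval of 7.60 to 10.4 TPM in replicate 1 and 8.48 to 11.3 TPM in replicate 2, and these intervals overlap. Pold1 was 8.0 ± 1.6 times as high as Pold4, and 5.11 ± 0.83 times over complete coding transcripts.

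In polymerase epsilon the catalytic subunit gene Pole had 24.4 and 19.6 TPM and its partner Pole2 17.7 and 17.1 TPM. The histone-fold subunit genes Pole3 (94.9 and 92.1 TPM) and Pole4 (79.6 and 77.8 TPM) were far above them, Pole3 by 4.30 ± 0.58 times relative to Pole. POLE3 is also known as a subunit of the chromatin remodelling complex CHRAC. The median of polymerase delta exceeded that of polymerase epsilon by 0.78 ± 0.016 on the log2(TPM + 1) scale. With the mean over subunits in place of the median the difference was 0.15, so its size rests on how 4 unequal subunits are summarised. Between the catalytic genes alone, Pold1 was 3.40 ± 0.089 times as high as Pole, and 2.93 ± 0.093 times over complete coding transcripts. The Pole level includes the 747-base Pole-203. The longest Pole transcript, Pole-201, had 7.96 and 6.46 TPM, against 50.9 and 44.4 TPM for Pold1-201, so the ratio depends on the transcripts counted.

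The clamp and its loader were among the highest roles, with a median of 116 ± 6.2 TPM. Pcna, which encodes the sliding clamp, had 274 and 264 TPM. Of the loader subunits, Rfc2 had 154 and 139 TPM, Rfc4 138 and 123 TPM and Rfc3 102 and 100.5 TPM. Rfc5 had 76.2 and 56.0 TPM and Rfc1, the large subunit, 60.5 and 60.1 TPM. Pcna was 1.83 ± 0.083 times as high as Rfc2, the highest loader gene. Pcna had 8347 and 8781 expected counts, against 59.4 and 52.4 for Pcna-ps2, a processed pseudogene that matches it at 99.2% over 781 bases.

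Genes of Okazaki fragment maturation had close gene levels. Lig1, the ligase that seals nicks, had 93.5 and 86.3 TPM, and Fen1, the nuclease that removes flaps, 86.9 and 80.8 TPM. Over complete coding transcripts Lig1 averaged 23.0 ± 1.4 TPM and Fen1 83.9 ± 4.3 TPM. Fen1 shares 1909 exonic bases with the antisense gene Gm10143, so with strand use unknown its level is uncertain too. The 3 subunits of replication protein A, which coats single-stranded DNA, lay between 81.1 and 141 TPM. Rpa1 had 91.9 and 81.1 TPM, Rpa2 103 and 93.6 TPM and Rpa3 128 and 141 TPM. Rpa3 and Rpa1 moved in opposite directions between the libraries.

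Fork protection genes were unequal. Tipin had 167 and 162 TPM, while Timeless, whose protein pairs with TIPIN, had 51.0 and 43.0 TPM, and Clspn, the checkpoint mediator claspin, 35.9 and 34.0 TPM. Tipin was 3.52 ± 0.34 times as high as Timeless, and 16.9 ± 2.4 times over complete coding transcripts.

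Nucleotide supply held the highest single gene. Rrm2, the small subunit of ribonucleotide reductase (chromosome 12, 24708241 to 24714146, mm10, plus strand), had 354 and 332 TPM. Rrm1, the large subunit, had 130.1 and 116 TPM, so Rrm2 was 2.79 ± 0.096 times as high. Rrm2b, the alternative small subunit known from the p53 response, had 8.33 and 9.08 TPM, and Rrm2 stood 39.5 ± 4.1 times above it. The dUTPase gene Dut had 158 and 163 TPM. The cytosolic thymidine kinase gene Tk1, known for its tie to S phase, had 87.9 and 85.4 TPM and stood 3.24 ± 0.22 times above the mitochondrial kinase gene Tk2 (28.5 and 25.2 TPM), or 2.08 ± 0.019 times over complete coding transcripts.

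Other genes of the same pathways were set beside the members. Of 26 further nucleotide supply genes, 25 were at 10 TPM or more in both libraries, with a median of 48.7 TPM. Their highest were Paics (280 and 258 TPM) and Nme1 (258 and 241 TPM), of purine synthesis and nucleoside diphosphate conversion, and Dtymk, thymidylate kinase (197 and 201 TPM). Their lowest, next to Rrm2b, was Dctd (11.9 and 11.6 TPM), which deaminates dCMP.

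Among 32 further replication factors, 29 were at 10 TPM or more, with a median of 55.9 TPM. The histone chaperone gene Ssrp1 (258 and 229 TPM), the topoisomerase gene Top2a (231 and 231 TPM) and Slbp, which binds histone mRNA (195 and 188 TPM), were highest. Recql4 (5.74 and 4.53 TPM) and the bypass polymerase gene Polh (6.98 and 6.66 TPM) were lowest. The share of genes at 10 TPM was thus 96.2% in the nucleotide list and 90.6% in the replication factor list, on either side of the members' 93%, and both medians were lower than that of the members.

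S phase control genes were lower, with a median of 29.0 TPM and 21 of 24 at 10 TPM or more. The chromatin subunit gene Rbbp4 (444 and 459 TPM), the cyclin gene Ccna2 (157 and 149 TPM) and the E2F partner gene Tfdp1 (142 and 132 TPM) led. The transcription factor genes E2f2 (9.49 and 7.98 TPM) and E2f3 (10.3 and 9.92 TPM) were lowest. The 26 mitosis genes were all at 10 TPM or more, with a median of 83.7 TPM. The members lay below the mitosis list by 0.22 on the log2(TPM + 1) scale, a difference of -0.22 ± 0.088, and by -0.48 ± 0.073 over complete coding transcripts. Cdk1 (315 and 297 TPM), Ccnb1 (247 and 224 TPM) and Cdc20 (222 and 207 TPM) were the highest of that list, and Anln (14.0 and 13.6 TPM) and Cenpe (24.6 and 25.8 TPM) the lowest.

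Gene TPM sums all listed transcripts of a gene, and for some members most of that sum was not complete coding mRNA. The members had 275 listed transcripts. Complete coding transcripts (classed as protein-coding in GENCODE M21, with no missing end) carried 83.6% of the members' TPM in replicate 1 and 84.1% in replicate 2, and 91.9% and 92.0% of their expected counts. Over all protein-coding genes they carried 83.6% and 83.7% of TPM. Transcripts with a retained intron carried 7.42% and 6.70% of the members' TPM, incomplete coding ones 3.73% and 3.84%, and other processed ones 3.49% and 3.57%. The members were thus near the share of all genes as a sum.

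Of the members, 6 had less than 50% of their TPM in complete coding transcripts, namely Rfc1, Timeless, Clspn, Orc4, Lig1 and Gins2, which is 10.5% of members against 12.8% of protein-coding genes with a mean of 100 expected counts or more. Most Rfc1 transcripts of the authors' annotation are not in GENCODE M21, and without Rfc1 it was 5 of 56 members, or 8.93%. In Gins2 the retained-intron transcript Gins2-204, of 511 bases, held 44.9 and 34.9 TPM, against 14.8 and 17.4 TPM for the coding transcript Gins2-201. Gins2-201 nevertheless held more expected counts, 1250 and 1600 against 411 and 349 for Gins2-204. Gins2 shares 2758 exonic bases with Gse1 on the opposite strand, the longest such overlap among the members, so the values of both transcripts are uncertain. Orc2 with Nif3l1 (1150 bases) and Rfc2 with Lat2 (952 bases) carry the same doubt. So do Rfc5 with Wsb2 (499 bases, Wsb2 at 72.3 and 81.0 TPM) and Orc4 with Acvr2a (446 bases, Acvr2a at 29.6 and 22.7 TPM). Other members have shorter overlaps. In Clspn an incomplete transcript of 608 bases, Clspn-207, held 25.5 and 24.7 TPM, and the coding Clspn-201, of 5027 bases, 8.06 and 6.96 TPM. By expected counts the order was the other way, with 288 and 304 for Clspn-207 and 883 and 832 for Clspn-201. Short transcripts thus weigh more in TPM than in reads.

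In Timeless the incomplete Timeless-204 held 30.3 and 27.4 TPM of the gene's 51.0 and 43.0 TPM. In Lig1 the incomplete Lig1-206 held 40.9 and 43.2 TPM and the coding Lig1-201 22 and 23.6 TPM. Lig1-201 held more expected counts, 1466 and 1712 against 768 and 885. For Rfc1 the highest of the transcripts not in GENCODE M21, of 485 bases, held 28.9 and 27.7 TPM. Long ones are also missing there, of 4751 bases (755 and 802 expected counts) and 3588 bases (580 and 585). The complete coding Rfc1-201 held 638 and 576 expected counts. The low coding share of Rfc1 thus reflects transcripts left without a class, and its true share is uncertain. At the other end, 30 of 57 members had 90% or more of their TPM in complete coding transcripts. The background was 6951 of 11966 protein-coding genes with a mean of 100 expected counts or more. The 30 members included Rrm2, Pcna, Mcm2, Mcm4, Mcm5, Mcm6, Rrm1, Tipin and Dut.

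**Figure D2:**
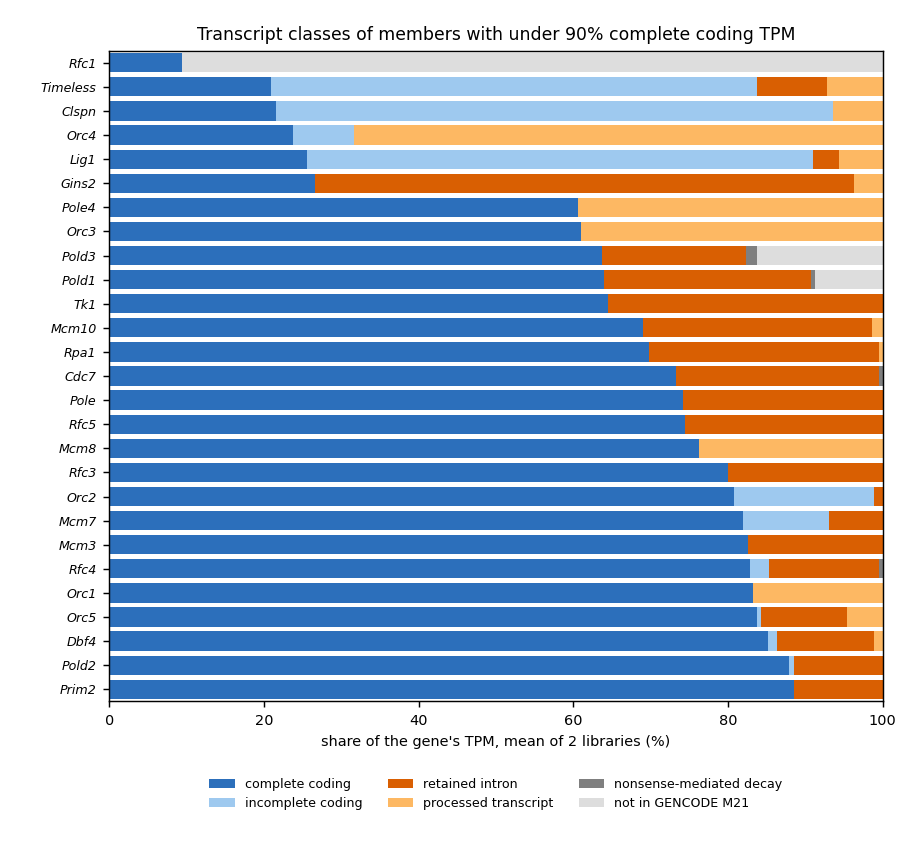
Share of each gene's TPM by transcript class, mean of both libraries, for the 27 members with under 90% in complete coding transcripts; each bar adds to 100%. Rfc1, Timeless, Clspn, Orc4, Lig1 and Gins2 stand apart at the top with under 50%, with incomplete coding transcripts leading in Timeless, Clspn and Lig1, a processed one in Orc4, a retained intron in Gins2 and transcripts not in GENCODE M21 in Rfc1.

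Counted over complete coding transcripts alone, the median of the members was 47.7 TPM, and Rrm2, Pcna, Mcm7, Tipin, Dut, Mcm6 and Rfc2 kept ranks 1 to 7 of 57. Orc4 moved to rank 42 from 15 and Lig1 to rank 41 from 18. Clspn moved to rank 53 from 42 and Timeless to rank 51 from 36. Ranks of these genes thus depend on which transcripts are counted, and the top 7 ranks did not change.

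**Figure D3:**
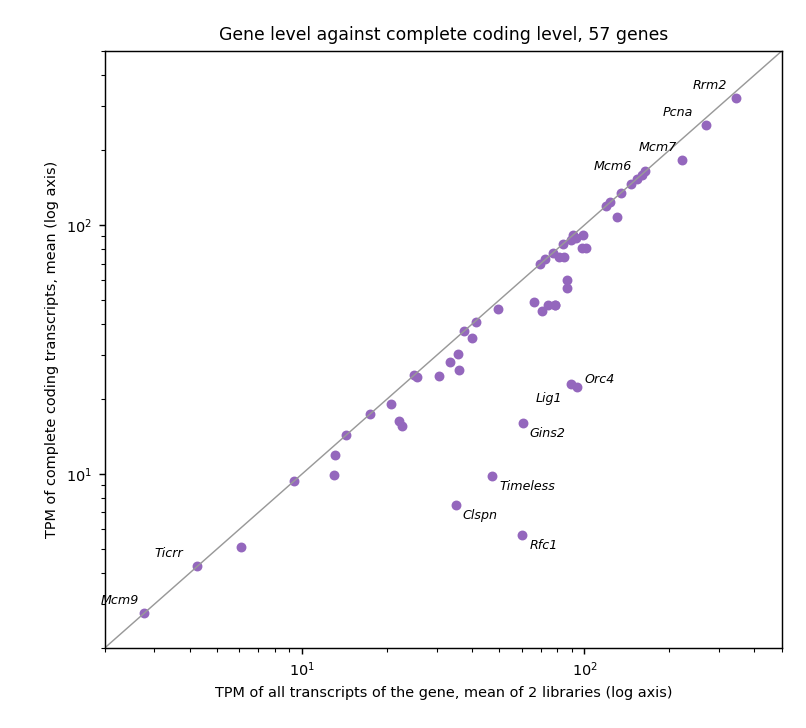
TPM of complete coding transcripts (y axis) against TPM of all transcripts (x axis), means of both libraries on log axes, 1 point per gene, with the line of equality. Most members lie on or just under the line, whereas Rfc1, Clspn, Timeless, Gins2, Orc4 and Lig1 fall well below it. Most Rfc1 TPM lies in transcripts not in GENCODE M21, which have no class here.

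Members with 2 or more listed transcripts had a median of 76.9 ± 2.1% of TPM in their leading transcript (44 genes), against 68.5% over 8840 protein-coding genes with a mean of 100 expected counts or more. The 5 with the lowest leading share were Orc4 (23.5%), Fen1 (34.4%), Pole (34.6%), Cdc7 (35.7%) and Orc3 (37.9%). In Fen1 the 3 leading transcripts were all complete and nearly equal, with 32.4 and 25.5 TPM for Fen1-202, 26.9 and 26.0 TPM for Fen1-203 and 24.7 and 25.3 TPM for Fen1-201. In Orc4 the processed transcript Orc4-212 led with 22 and 22.3 TPM, over the coding Orc4-201 with 16.5 and 15.7 TPM. By expected counts Orc4-201 led, with 1458 and 1514 against 673 and 744. In Pole the transcripts Pole-203, of 747 bases (8.82 and 6.45 TPM), and Pole-201, of 7163 bases (7.96 and 6.46 TPM), were level in TPM, but Pole-201 held 1249 and 1107 expected counts against 127 and 101. In Cdc7 the split among near-identical coding transcripts was unstable, since Cdc7-202 had 6.38 TPM in replicate 1 and was listed at 0 in replicate 2.

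Both libraries gave nearly the same levels for the members. The log2 ratio of TPM, replicate 1 over replicate 2, had a median of 0.14 over the members and 0.11 over 14552 protein-coding genes with a mean of 10 expected counts or more. Of the members, 51 of 57 were higher in replicate 1, against 73.8% of these genes. With counts scaled by TMM, edgeR's correction for composition, the members' median was 0.016 and 33 of 57 were higher in replicate 1, against 49.5% of genes. The common shift went away with that scaling, which moved the median of all genes to -0.0019. TMM evens out the typical gene between libraries by construction, so this loss is no result about the members.

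Only 3 members were apart by 25% or more in TPM, against 21.4% of protein-coding genes with a mean of 10 expected counts or more and 12.9% with 100 or more. Among genes with 1000 or more it was 1 of 50 members, against 5.08%. They were Rfc5 (log2 ratio 0.44), Mcm9 (0.35) and Orc1 (0.34), all higher in replicate 1, where the background in that direction was 16.7%, and none was higher in replicate 2, where it was 4.68%. Pole (0.32) and Gins2 (0.29) came next, just under the threshold. No member was 1.5-fold apart in TPM, where the background was 8.56%. After TMM scaling no member was 25% apart, but the share of all genes was not taken at that setting. The expected counts of Rfc5 were closer, at 3388 and 3193. Its retained-intron transcript Rfc5-205, of 375 bases, had 16.5 TPM in replicate 1 and 4.38 in replicate 2, while the coding Rfc5-201 had 49.6 and 45.4 TPM. The likewise short Rfc4-205 of Rfc4 (449 bases) had 27.6 and 9.48 TPM.

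By the authors' TPM intervals, whose level is not stated, 25 members were apart with replicate 1 higher, against 22.6% of protein-coding genes, and 1, Rpa3, with replicate 2 higher, against 3.34%. Of the 6 members higher in replicate 2, namely Pold4, Rpa3, Gins1, Mcm8, Gins4 and Dut, all but Mcm8 and Dut had a longest complete coding transcript shorter than 1500 bases.

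Across the 57 genes the log2 ratio was larger for longer transcripts, with a Spearman correlation of 0.64 between the ratio and the length of the longest complete coding transcript. The points are genes of the same 2 libraries, so this describes those libraries. The 9 members under 1500 bases had a median ratio of 0.021, the 22 from 1500 to 3000 bases 0.11 and the 26 of 3000 bases or more 0.23. Over 11920 protein-coding genes with a mean of 100 expected counts or more the correlation was 0.21, and the medians in the same classes were 0.015, 0.10 and 0.13. The medians of members below 3000 bases were thus close to those of other genes of their length, and that of the longer ones lay above. With TMM-scaled counts, which hold no length term, the correlation was 0.69 over the members and 0.26 over these genes.

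**Figure D4:**
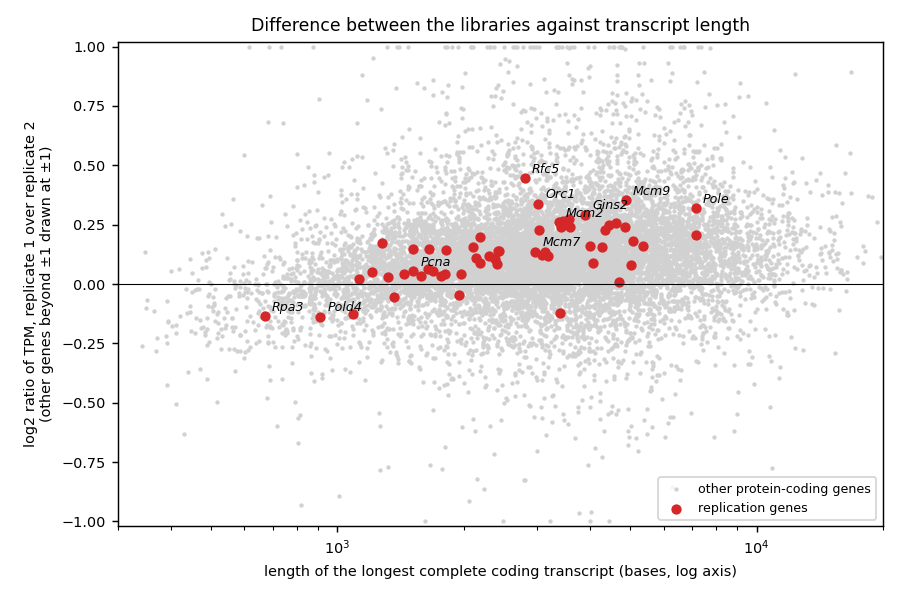
Log2 ratio of TPM, replicate 1 over replicate 2, against the length of the longest complete coding transcript on a log axis; red points are the 57 members and grey points the other protein-coding genes with a mean of 100 expected counts or more. Members under 1500 bases lie around 0 (median 0.021), and those of 3000 bases or more mostly above it (median 0.23).

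Markers of the tissue and of other cells were read in the same libraries. The forebrain genes Lhx2, Dlx1, Dlx2, Emx1, Emx2 and Six3 were at 10 TPM or more in both libraries, from 15.3 and 18.4 TPM for Six3 to 233 and 235 TPM for Dlx1, whereas none of 7 caudal neural tube genes reached 1 TPM and Hoxb4 was at 0 in both. The 7 apical progenitor markers summed to 2417 and 2446 TPM and the 7 neuron markers to 2428 and 2290 TPM. Markers of dividing and postmitotic cells were thus both present, with sums close between libraries. The sums lean on a few genes, such as Fabp7 (1190 and 1265 TPM) and Tubb3 (1161 and 1071 TPM), and do not measure cell proportions. Choroid plexus markers summed to 475 TPM in replicate 1 and 249 in replicate 2, with 6 of 6 higher in replicate 1. Erythroid markers summed to 10766 and 9798 TPM, with 7 of 8 higher in replicate 1. The background in that direction was 73.8% of protein-coding genes with a mean of 10 expected counts or more. Among the defining markers, Kl of the choroid plexus was at 0.17 and 0.13 TPM and Gata1 of erythroid cells at 0.22 and 0.31 TPM. Endothelial markers summed to 75.4 and 80.6 TPM and microglial markers to 31.2 and 31.6 TPM. Red cell precursors also replicate DNA, and the part of these cells in the members' levels was not tested.

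By position, 9 of 57 members lay on chromosome 5, or 15.8% against 5.71% of protein-coding genes, and 6 on chromosome 8, or 10.5% against 4.75%. Chromosome 5 held the loader genes Rfc1, Rfc2, Rfc3 and Rfc5, the kinase pair Cdc7 and Dbf4, and Mcm7, Orc5 and Pole. Chromosome 8 held Gins2, Gins3, Gins4, Mcm5, Orc6 and Cdt1. A protein-coding gene on the opposite strand started within 1000 bases upstream of 11 members, or 19.3%, against 11.9% of protein-coding genes at 10 TPM or more and 6.82% of all. The closest pair was Orc3, with 81.8 and 75.3 TPM, and Rars2, which starts 13 bases away and had 57.8 and 56.4 TPM. Orc1, in contrast, was far below its neighbour Prpf38a, which starts 87 bases away and had 94.3 and 93.1 TPM. Mcm4 (83.5 and 70.7 TPM) was far above Prkdc, 466 bases away, with 6.25 and 5.66 TPM, so members and their neighbours differed in either direction.

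Promoter windows of 300 bases (250 before the RefSeq start and 50 from it) were at hand for 48 of the 57 genes. Prim2, Gins2, Gins4, Gmnn, Rfc2, Gins1, Pole, Tipin and Mcm4 had none. The E2F letters given with the sequences above were in the windows of 18 of 48 members (37.5%), against 3.29% of 17492 protein-coding genes. Among protein-coding windows with a GC content between the members' 10th and 90th percentiles the share was 3.88%. Those windows still had a lower median GC content than the members' windows, at 58.0% against 61.8%. Their median number of CG pairs was also lower, at 16 against 23. Each form of the E2F letters holds a CG, and the part of CG content in the difference was not tested. The holders were Orc1, Orc3, Cdc6, Cdt1, Mcm3, Mcm5, Mcm6, Mcm7, Mcm8, Gins3, Pola1, Pold1, Pold3, Pole2, Pole4, Rfc3, Lig1 and Clspn.

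The helicase genes stood out in the count of matches within a window. Windows with 2 or more matches were those of Mcm3, Mcm5, Mcm6, Mcm7 and Rfc3, which is 10.4% of members against 0.154% of protein-coding genes. In Mcm5 and in the upstream pair of Mcm6 the matches share 4 bases, as the run TTTGGCGCGAAA of Mcm6 shows, and without overlapping matches the count was 4, or 8.33% against 0.143%. Mcm2 was the only MCM2-7 gene with a window and no match. No match was found for the 3 replication protein A genes, Pcna, or the 4 nucleotide supply genes Rrm1, Rrm2, Tk1 and Dut, which include the highest members. A match thus did not always go with a higher level, since Orc1 (6.80 and 5.38 TPM) had one and Rrm2 (354 and 332 TPM) had none. Levels of members with and without a match were not compared as sets.

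The letters CCAAT, bound by NF-Y, were in 28 of 48 windows (58.3% against 42.3% of protein-coding genes), in all 5 MCM2-7 genes with a window and in all 3 replication protein A genes. Both CCAAT and E2F letters were in 10 windows, or 20.8% against 1.43%. The CHR letters TTTGAA or TTTAAA, known from promoters of late cell cycle genes, were in 12 windows, or 25% against 28.2%, and were the only ones not more frequent in the members. These matches describe letters in a window and are not measured binding sites, and the 2 kinds of letters shared a base only in the downstream match of Mcm7.

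**Figure D5:**
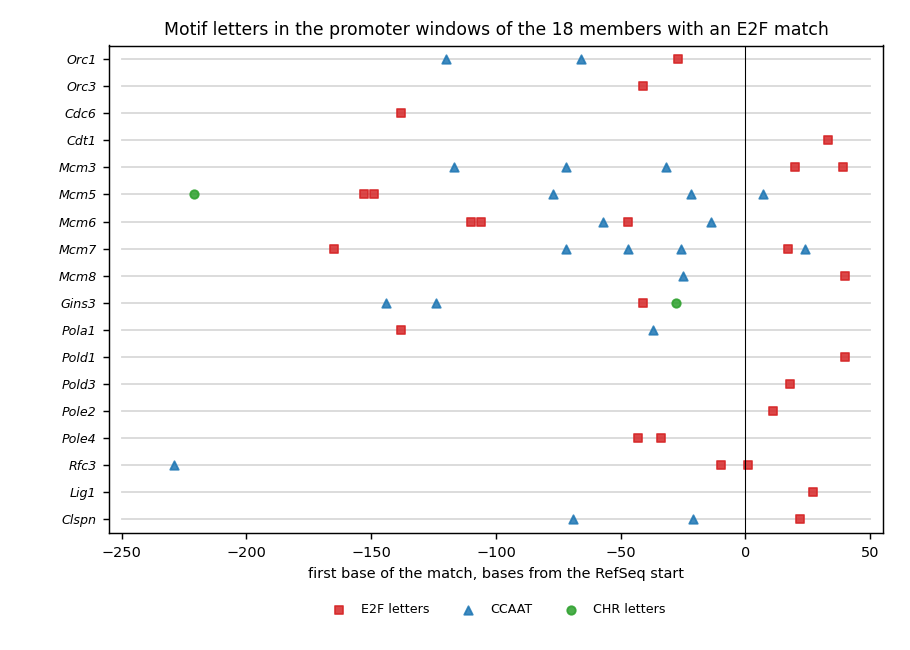
Position of the first base of each match relative to the RefSeq start, for the 18 members whose window holds E2F letters (squares), with CCAAT (triangles) and CHR letters (circles) in all windows of these genes. Pole4 has 2 RefSeq starts and its site is drawn for each. Mcm7 also has 2, and its CCAAT at -47 lies in the window without E2F letters. Matches of Mcm3, Mcm5, Mcm6 and Mcm7 accompany several CCAAT letters, and those of Cdt1, Mcm3, Mcm8, Pold1, Pold3, Pole2, Lig1 and Clspn lie after the start.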

How the data were processed

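Total RNA from 2 libraries of 1 group was analysed from the gene and transcript tables deposited by the authors, made from alignments to mm10 with GENCODE M4, per the labels and the deposited metadata. The sources used here give neither an aligner nor a strand setting. Per the file headers, the deposited expected counts are estimated reads per feature, and the deposited TPM and FPKM values are scaled for length and library. The deposited percent column is a transcript's share of its gene, recomputed here from TPM. The authors' interval bounds served only to show which libraries' intervals lay apart. Symbols, classes and coordinates came from GENCODE M21 by identifier (42462 of 43346 genes matched).

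Members were found by symbol. All 57 are named with both values; outside them, the 3 highest and 2 lowest genes of each list, the 5 members with the largest ratios and the 5 with the lowest leading share are named by rule, and others were chosen after their values were seen. Members and lists were chosen with earlier results of these data known. List differences use log2(TPM + 1). Ratios need a mean of 10 expected counts. Under R 4.3.3, rounded counts were scaled by edgeR 4.0.16 (TMM) or by the size factors of DESeq2 1.42.0. Copies were sought with BLAST 2.17.0 (95% identity over 200 bases), and tables were handled with scipy 1.17.1, numpy 2.4.6 and pandas 2.3.3 under Python 3.11.15. Promoter windows are RefSeq's (GRCm38.p6). A further forebrain marker is not reported here. Scripts were tested on simulated data. Alternatives, complete coding transcripts and one window per gene among those added after seeing the data, are given in the closing section.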

Additional observations from a re-analysis of the deposited data

How the results depend on the processing

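No paired analysis was possible because there is 1 group, with no second group to pair. Leaving out each library in turn gave 67.8 to 76.2 TPM for the members' median, 53 to 53 members at 10 TPM, 1.09 to 1.19 for MCM2-7 minus origin recognition complex, 0.93 to 1.29 for MCM2-7 minus Cdc45 and GINS, 0.77 to 0.80 for polymerase delta minus epsilon, -0.28 to -0.15 for members minus mitosis and 75.4% to 78.4% for the leading share.

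No value reversed. With complete coding transcripts only, the members' median was 47.7 TPM, MCM2-7 minus origin recognition complex 1.95, delta minus epsilon 0.66 and members minus mitosis -0.48, since transcripts of other classes leave the sums. With means of log2(TPM + 1) in place of medians these were 54.2 TPM, 1.58, 0.15 and -0.52, and MCM2-7 minus Cdc45 and GINS was 1.48. Delta minus epsilon was 0.81 with posterior mean TPM and 0.80 with a pseudocount of 0.1, and the leading share was 74.1% with posterior mean TPM. The members' log2 ratio was 0.016 with TMM and 0.014 with DESeq2's size factors. Members 25% apart numbered 0 with TMM, 0 with DESeq2's size factors and 1 with 0.5 TPM added, and 0 at 1.5-fold. The share of all genes was taken only for the last of these settings, at 8.56%. E2F letters of 7 bases were in the windows of 30 members, or 62.5% against 13.7% of protein-coding genes. The full letters before the start were in those of 10, or 20.8% against 2.72%. In the other 43 recomputed values, results moved by less than the spread between libraries, by at most 1.5 times for counts, or by less than 0.05 for the log2 ratio. Some of these values leave out 1 library. A mean of 2 libraries then moves by less than their SD by construction, so such values are no check of stability.

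Depth was ample for levels, with 161 expected counts or more per member and library. The 2 libraries limit every error given, and the split of TPM among short transcripts rests on few reads.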
